A study of Danio rerio with 16 samples.

Results

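Zebrafish (Danio rerio) larvae exposed to perfluorobutanoic acid (PFBA) at 10 µg/L, the highest of the 3 doses in the study, were compared with larvae given the solvent alone. PFBA is a short-chain perfluorinated carboxylic acid, one of the persistent surfactant chemicals used in place of longer-chain compounds. All libraries with these labels were taken, which gave 5 libraries at 10 µg/L and 4 control libraries (dimethyl sulfoxide), 9 of the 16 libraries of the series. Both groups were whole larvae, 7 days old, frozen after an exposure of 7 days, and polyadenylated RNA was sequenced as strand-marked libraries. The labels give no strain, no number of larvae per library and no hour of collection, and nothing says that the libraries of a group came from separate cultures, so p-values measure the spread between these libraries, which may be technical. Libraries carry the number in their deposited column name, which is 1 to 5 at 10 µg/L and 1, 3, 4 and 5 in control.

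The circadian clock is a feedback loop in which the activators Bmal1 (arntl1a and arntl1b) and Clock switch on Period, Cryptochrome, Rev-erb and other repressors, which in turn shut the activators down. In zebrafish most tissues hold light-responsive clocks, and the pineal gland turns the clock's state into melatonin through the enzyme encoded by aanat2. Immediate early genes such as fos, egr and nr4a members are transcribed within minutes of a stimulus without new protein synthesis. Photoreceptors of the larval retina, mostly cones at this age, detect light with opsins, pass the signal through transducin to a phosphodiesterase, and reset it with arrestins, kinases and guanylate cyclase activating proteins.

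The libraries held 9708464 to 13089123 reads at 10 µg/L and 11353212 to 13735306 reads in control, with 21247 to 22606 genes detected at 10 µg/L and 22319 to 22921 in control. Over 126 arrangements of the libraries, the smallest exact two-sided permutation p among 5 library measures (reads, genes with a read, the share of the 10 most abundant genes, the scaling factor and the mitochondrial share) was 0.135, for genes with a read, and 0.625 after adjustment over the 5. The first principal component was taken on log2 CPM (counts scaled to a common library size). On it, with 36.8% of the variance, library 3 at 10 µg/L lay at 92.6 and control library 5 at 41.0, while the others lay between -43.5 and 10.3. The second component, with 20.7% of the variance, put all 10 µg/L libraries between -72.5 and -0.92 and all control libraries between 9.67 and 40.3. Counts over all genes and for the phototransduction and lens lists are also given below without library 3 at 10 µg/L and control library 5. Single genes in which either library stood out are mostly given with all libraries.

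Of 18027 genes tested, 157 differed between the groups (edgeR quasi-likelihood test, Benjamini-Hochberg adjusted p below 0.05), which is 0.871% of the genes tested. Of these 41 rose and 116 fell at 10 µg/L, 0.227% and 0.643% of the genes tested. In all 157 the groups did not overlap, which the choice by p-value favours, and over all tested genes the groups did not overlap in 5.43%. The median log2 fold change was 1.21 among the genes that rose and -1.29 among those that fell, against -0.01 over all genes tested. At least 2-fold changes numbered 29 higher and 82 lower, and at least 4-fold changes 6 higher and 20 lower. The called genes had a median level of 45.6 CPM over the 9 libraries, against 11.7 CPM among all genes tested, and 155 of them are protein coding. In the authors' deposited table all 157 also had an adjusted p below 0.05, among 390 such genes (1.53% of those listed). DESeq2 called 439 (2.44%), 180 higher (0.999%) and 259 lower (1.44%), and limma-voom called 149 (0.827%), 113 of them lower (0.627%). A fit of all 16 libraries called 43 (0.225%), 16 higher (0.0838%) and 27 lower (0.141%), all among the 157, and the count ranged from 67 to 181 when 1 library was left out.

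**Figure D1:**
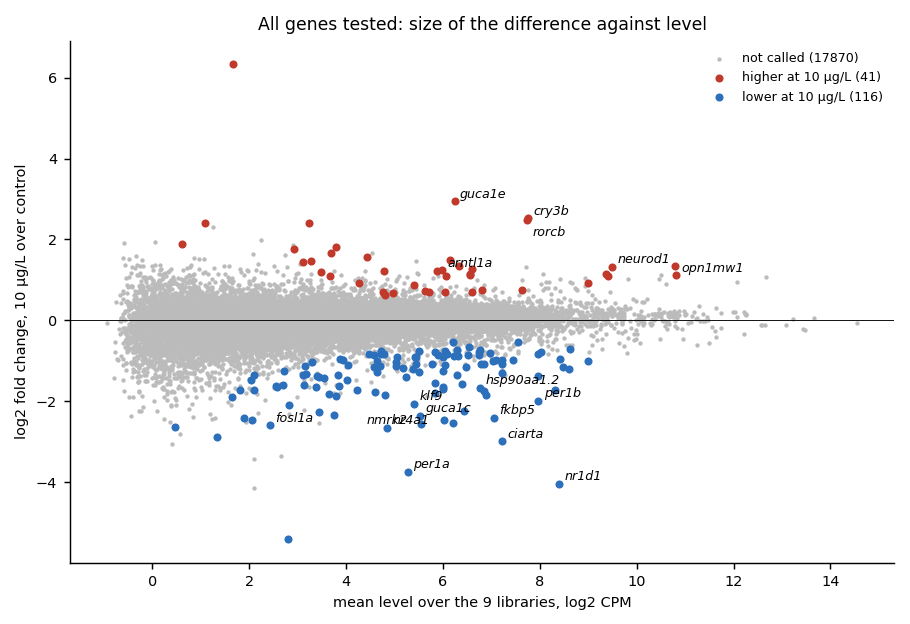
Log2 fold change of 10 µg/L over control (y axis) against the mean level over the 9 libraries in log2 CPM (x axis), 1 point per tested gene, with the 41 genes called higher and the 116 called lower in colour. Most called genes that fell lie below the band of all genes at middle and high levels, with nr1d1 and per1a lowest among the labelled genes.

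The clock lists, written like all lists with earlier results of these data known, held many called genes. The labels give no hour of collection, so its part in the differences of clock genes, and of all other called genes below, was not tested. Of 41 tested members of the 3 clock lists, 6 rose, 13 fell and 22 did not pass, beside 0.871% of all genes. Among 8 activator and loop genes arntl1a and rorcb rose and none fell, and the median log2 fold change was 0.56. Among 27 genes of the repressor list 4 rose and 11 fell, with a median of -0.57, and among 6 PAR bZIP output factors dbpa and dbpb fell, with a median of -0.71. All 19 also passed in DESeq2, as did all 157 called genes. Whichever library was left out, 15 of the 19 passed, and 63 of the 157. In the fit of all 16 libraries 11 passed, 6 higher and 5 lower, beside 0.0838% and 0.141% of all genes. The falls of per1a, per1b, nr1d2a, nr1d2b, cry2, ciartb, dbpa and nfil3-6 lost their call there. Their edgeR adjusted p-values in that fit ran from 0.0629 for per1b to 0.279 for dbpa.

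On the activator side, arntl1a had 69.6, 83.5, 106, 79.7 and 83.95 CPM at 10 µg/L and 29.5, 34.3, 33.8 and 46.1 CPM in control (log2 fold change 1.24, SE 0.16, adjusted p = 0.00276 in edgeR). Every exposed library lay above every control library. Its paralog arntl1b had 33.9, 25.8, 26.2, 15.3 and 29.1 CPM at 10 µg/L and 13.3, 13.999, 9.66 and 13.8 CPM in control, also without overlap, but did not pass (log2 fold change 1.04, SE 0.22, adjusted p = 0.0564 in edgeR). clocka averaged 24.9 ± 8.29 CPM at 10 µg/L and 13.3 ± 2.01 CPM in control (SD, n = 5 and 4), which did not pass either (edgeR adjusted p = 0.161), and clockb stood at 29.5 ± 9.64 and 25.6 ± 3.94 CPM.

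The nuclear receptor gene rorcb, whose mammalian relatives activate Bmal1 transcription, had 258, 391, 642, 111 and 285 CPM at 10 µg/L and 50.1, 40.3, 59.5 and 92.7 CPM in control (log2 fold change 2.48, SE 0.45, adjusted p = 0.0317 in edgeR). Its exposed libraries spread widely, with library 3 highest and library 4 only just above the highest control. The call of rorcb held in 3 of 9 fits with 1 library left out, where its adjusted p reached 0.133. The other ROR genes roraa, rorab and rorb did not pass and had log2 fold changes of -0.09, -0.05 and -0.42.

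Both Period 1 genes fell. per1a, which is also a target of the glucocorticoid receptor, had 6.82, 10.15, 5.37, 2.29 and 4.86 CPM at 10 µg/L and 80.2, 69.7, 92.7 and 76.5 CPM in control, a 13.4-fold lower level (log2 fold change -3.75, SE 0.31, adjusted p = 6.99e-05 in edgeR). per1b had 106, 109, 115, 108 and 103 CPM at 10 µg/L and 403, 367, 441 and 499 CPM in control (log2 fold change -1.98, SE 0.12, adjusted p = 5.41e-06 in edgeR). The exposed libraries of per1b lay between 103 and 115 CPM, far below the lowest control.

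per3 had 247, 276, 293, 167 and 249 CPM at 10 µg/L and 573, 454, 571 and 685 CPM in control and fell as well (log2 fold change -1.21, SE 0.18, adjusted p = 0.00531 in edgeR). per2, the light-induced Period gene of zebrafish, averaged 182 ± 13.96 CPM at 10 µg/L and 134 ± 16.4 CPM in control (SD, n = 5 and 4) and did not pass (log2 fold change 0.44, edgeR adjusted p = 0.167). Among the Period genes, then, the 3 that passed fell, and per2 had a fold change of the opposite sign that missed the threshold.

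All 3 called Rev-erb genes fell, and these encode nuclear receptors that repress Bmal1 transcription. nr1d1 had 33.2, 47.02, 55.97, 45.6 and 32.1 CPM at 10 µg/L and 582, 627, 789 and 818 CPM in control (log2 fold change -4.04, SE 0.20, adjusted p = 1.6e-06 in edgeR). nr1d2a had 134, 171, 181, 147 and 155 CPM at 10 µg/L and 454, 449, 592 and 573 CPM in control (log2 fold change -1.72, edgeR adjusted p = 6.46e-05). nr1d2b averaged 349.9 ± 88.5 CPM at 10 µg/L and 705 ± 134 CPM in control (SD, n = 5 and 4; log2 fold change -1.01, edgeR adjusted p = 0.0317). The groups did not overlap in any of them, and nr1d4a and nr1d4b did not pass, with log2 fold changes of -0.56 and -0.90.

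The CIART genes, whose mouse counterpart binds and represses the Bmal1 complex, fell together. ciarta had 35.9, 42.8, 34.7, 27.5 and 40.5 CPM at 10 µg/L and 251, 262, 339 and 304 CPM in control (log2 fold change -2.99, edgeR adjusted p = 1.6e-06). ciartb, at a lower level, had 4.03, 4.24, 2.95, 5.05 and 3.64 CPM at 10 µg/L and 21.8, 20.4, 20.4 and 14.6 CPM in control (log2 fold change -2.27, edgeR adjusted p = 0.000154). bhlhe41, a basic helix-loop-helix repressor also called DEC2, averaged 23.5 ± 4.83 CPM at 10 µg/L and 138 ± 26.6 CPM in control (SD, n = 5 and 4; log2 fold change -2.55, edgeR adjusted p = 1.44e-05), while its paralog bhlhe40 did not pass (log2 fold change -0.57, edgeR adjusted p = 0.277).

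The cryptochromes went both ways. cry2 had 32.3, 34.95, 26.9, 26.2 and 32.7 CPM at 10 µg/L and 88.8, 80.9, 106 and 85.6 CPM in control (log2 fold change -1.56, SE 0.14, adjusted p = 7.48e-05 in edgeR). cry3b had 275, 304, 544, 254 and 321 CPM at 10 µg/L and 46.8, 38.8, 74.5 and 76.7 CPM in control, with library 3 above the rest of its group (log2 fold change 2.52, SE 0.28, adjusted p = 0.000847 in edgeR). cry4 had 67.3, 73.1, 98.4, 87.997 and 66.9 CPM at 10 µg/L and 32.3, 28.2, 34.9 and 40.02 CPM in control (log2 fold change 1.22, SE 0.16, adjusted p = 0.00255 in edgeR). So cry2 was low and cry3b and cry4 were high in every exposed library, while cry1a, cry1b, cry3a and cry5 did not pass and had log2 fold changes of 0.03, -0.62, 0.46 and 0.14. The genes cry3b and cry4 are neighbours, 10374 bases apart on chromosome 22.

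The E4BP4-related bZIP repressors also split. nfil3-5 had 18.4, 22.1, 24.5, 11.9 and 25.2 CPM at 10 µg/L and 5.83, 5.38, 5.38 and 6.64 CPM in control (log2 fold change 1.81, SE 0.24, adjusted p = 0.00248 in edgeR). nfil3-6 had 51.6, 59.8, 75.9, 20.9 and 69.7 CPM at 10 µg/L and 157, 121, 269.95 and 205 CPM in control (log2 fold change -1.76, SE 0.33, adjusted p = 0.0336 in edgeR). Both groups were clear of each other in either gene, in opposite directions. fbxl3l, named for the F-box protein that marks cryptochromes for degradation in mammals, averaged 14.6 ± 7.19 CPM at 10 µg/L and 2.75 ± 1.26 CPM in control and rose (log2 fold change 2.41, edgeR adjusted p = 0.0196). Members of the repressor list that rose were thus 2 cryptochromes, 1 bZIP repressor and 1 F-box gene.

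Among clock outputs, dbpa and dbpb encode D-box activators of the PAR bZIP family. dbpb had 20.8, 19.97, 26.3, 16.7 and 23.7 CPM at 10 µg/L and 99.6, 99.9, 137 and 142 CPM in control (log2 fold change -2.48, SE 0.17, adjusted p = 1.05e-05 in edgeR), and dbpa had 40.5, 39.4, 23.7, 30.2 and 29.8 CPM at 10 µg/L and 95.2, 99.1, 116 and 98.7 CPM in control (log2 fold change -1.64, edgeR adjusted p = 0.000251). Each exposed library was below each control library in both. The other PAR bZIP genes hlfa, hlfb, tefa and tefb did not pass and had log2 fold changes of -0.11, 0.12, -0.76 and -0.66. Outside the lists, and chosen after their values were seen, cipcb, a relative of the mammalian Clock-interacting repressor CIPC, averaged 43.3 ± 9.87 CPM at 10 µg/L and 93.8 ± 2.49 CPM in control (SD, n = 5 and 4; log2 fold change -1.11, edgeR adjusted p = 0.0049). nocta, which encodes the circadian phosphatase nocturnin, averaged 11.8 ± 4.37 CPM at 10 µg/L and 39.99 ± 10.1 CPM in control (log2 fold change -1.77, edgeR adjusted p = 0.00745).

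**Figure D2:**
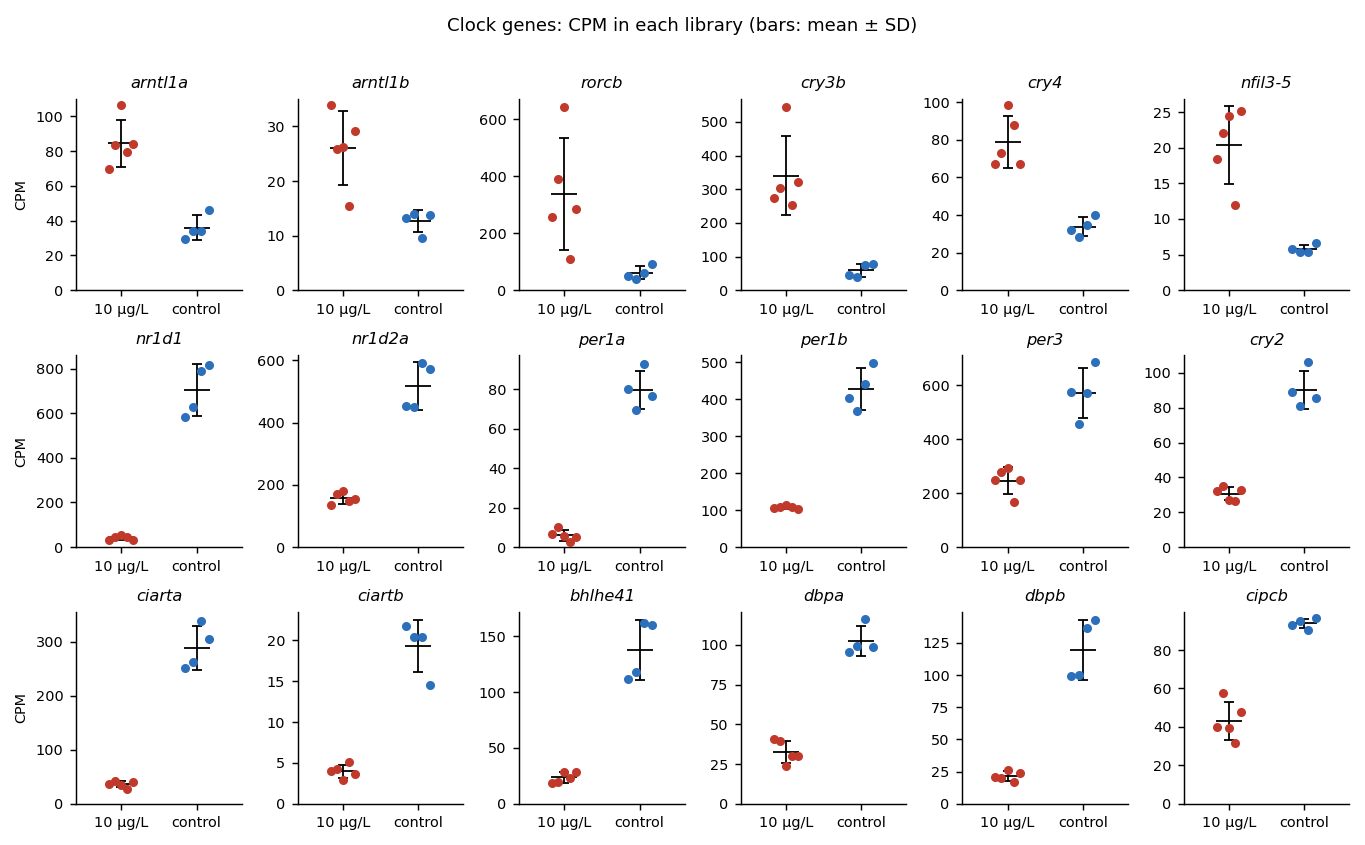
CPM of 18 clock genes (y axis, linear from 0, 1 scale per gene) in the 5 libraries at 10 µg/L (red, left) and the 4 control libraries (blue, right), with the mean and SD as bars. The groups do not overlap in any of the 18, with arntl1a, rorcb, cry3b, cry4 and nfil3-5 higher and nr1d1, per1a and ciarta lower at 10 µg/L; arntl1b did not pass the test.

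In the pineal list 1 of 10 tested genes passed, beside 0.871% of all genes. aanat2, the rate-limiting enzyme gene of melatonin synthesis, had 14.3, 17.5, 28.2, 14.9 and 17.9 CPM at 10 µg/L and 4.84, 5.22, 7.22 and 5.95 CPM in control (log2 fold change 1.67, SE 0.24, adjusted p = 0.00531 in edgeR). Library 3 was highest, and the lowest exposed library was above the highest control. The pineal opsin gene exorh averaged 13.1 ± 2.89 CPM at 10 µg/L and 12.1 ± 1.67 CPM in control, parietopsin 29.8 ± 11.4 and 31.99 ± 12.1 CPM, the transcription factor gene otx5 162 ± 27.5 and 173 ± 21.01 CPM, and the last enzyme gene of the pathway, asmt, 6.87 ± 2.35 and 9.18 ± 0.983 CPM (SD, n = 5 and 4 each). None of these 4 passed, and their adjusted p-values in edgeR lay between 0.622 and 0.955.

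Of 49 tested genes of the phototransduction cascade 5 rose and 6 fell, beside 0.227% and 0.643% of all genes tested. The median log2 fold change was 0.21. It was 0.03 without library 3 at 10 µg/L, and 0.04 without that library and control library 5. The summed level of the list was 21099 to 40664 CPM at 10 µg/L and 16745 to 25916 CPM in control. Genes that rose were opsins, a transducin subunit and 1 cyclase activator, and genes that fell were 3 cyclase activators, a cone arrestin, a cone opsin kinase and a cone channel subunit. In bulk RNA, fewer cells of a type and less RNA per cell cannot be told apart, and the same holds for more. Without library 3 at 10 µg/L and control library 5 the counts were 2 higher and 8 lower, with the counts over all genes given below. In the fit of all 16 libraries they were 3 higher and 0 lower, beside 0.0838% and 0.141% of all genes. DESeq2 called 11 higher and 9 lower, beside 0.999% and 1.44% of all genes. The fit of 14 libraries without libraries 1 and 2 at 0.1 µg/L called 7 higher and 0 lower, beside 80 calls over all genes. Of the 11 calls of the main fit 4 held whichever library was left out, as did 63 of all 157.

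The guanylate cyclase activating proteins are calcium sensors that restart cyclic GMP synthesis after light, and their genes moved in opposite directions. guca1e had 89.3, 177, 181, 66.1 and 103 CPM at 10 µg/L and 17.2, 12.7, 19.8 and 14.2 CPM in control, a 7.70-fold higher level (log2 fold change 2.95, SE 0.31, adjusted p = 0.000679 in edgeR). guca1c had 14.9, 17.6, 19.99, 14.8 and 13.9 CPM at 10 µg/L and 73.7, 62.7, 102 and 94.7 CPM in control, a 5.13-fold lower level (log2 fold change -2.36, SE 0.17, adjusted p = 2.06e-05 in edgeR). The exposed libraries of guca1c were close together, while those of guca1e fell into a higher pair, libraries 2 and 3, and a lower trio. guca1a averaged 2.53 ± 0.608 CPM at 10 µg/L and 6.48 ± 1.04 CPM in control and fell (log2 fold change -1.36, edgeR adjusted p = 0.0341), a call that held in 1 of 9 fits with 1 library left out. guca1d, which was near the limit of detection at 10 µg/L, averaged 0.403 ± 0.224 and 2.61 ± 1.51 CPM (log2 fold change -2.65, edgeR adjusted p = 0.0428) and lost its call whenever 1 library was left out. guca1g averaged 13.6 ± 7.75 CPM at 10 µg/L and 31.5 ± 6.08 CPM in control without overlap and did not pass (edgeR adjusted p = 0.175). Levels of guca1e and guca1c were 23.7 and 3.02 CPM per kilobase at 10 µg/L and 3.07 and 15.5 CPM per kilobase in control, so the order of these paralogs was reversed between the groups.

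Of the opsin genes, 1 green and 2 red cone opsins rose. opn1mw1, a green opsin, had 1609.5, 2593, 2782, 2815 and 1948 CPM at 10 µg/L and 927, 1266, 1325 and 819.5 CPM in control (log2 fold change 1.12, SE 0.22, adjusted p = 0.0318 in edgeR). opn1lw2, a red opsin, had 1534, 2734, 3074, 2801 and 1937 CPM at 10 µg/L and 797, 1278, 1172 and 542 CPM in control (log2 fold change 1.35, SE 0.28, adjusted p = 0.0436 in edgeR). In both, libraries 1 and 5 were the lowest of the exposed group and came closest to the controls. The neighbouring red opsin opn1lw1, 1009 bases from opn1lw2, was far lower, at 2.26 ± 0.457 CPM at 10 µg/L and 0.594 ± 0.164 CPM in control (log2 fold change 1.90, edgeR adjusted p = 0.0428), and reads of such close copies may be split between them. Of 9 fits with 1 library left out, opn1mw1 was called in 2 and opn1lw2 in 1.

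Other opsins had fold changes of the same sign and did not pass. opn1sw1, the ultraviolet cone opsin, averaged 8443 ± 2340.1 CPM at 10 µg/L and 4016 ± 1105 CPM in control (SD, n = 5 and 4; log2 fold change 1.07, edgeR adjusted p = 0.0898). The rod opsin gene rho averaged 5483 ± 1701 CPM at 10 µg/L and 2849.8 ± 608 CPM in control (log2 fold change 0.94, edgeR adjusted p = 0.138), and the blue opsin opn1sw2 had a log2 fold change of 0.87 (edgeR adjusted p = 0.108). gngt2a, a cone transducin gamma subunit, had 58.8, 88.2, 144, 105 and 97.4 CPM at 10 µg/L and 32.4, 32.9, 39.5 and 36.4 CPM in control and passed (log2 fold change 1.48, SE 0.22, adjusted p = 0.00531 in edgeR), with library 3 highest and library 1 lowest of the exposed group. Its paralog gngt2b averaged 1907 ± 534 CPM at 10 µg/L and 878 ± 209 CPM in control and narrowly missed the threshold (log2 fold change 1.12, edgeR adjusted p = 0.0518).

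A cone arrestin, a cone opsin kinase and a cone channel subunit fell. arr3b, a cone arrestin that quenches activated opsin, had 100.1, 156, 167, 171 and 136 CPM at 10 µg/L and 297, 296, 519.6 and 406 CPM in control (log2 fold change -1.38, SE 0.20, adjusted p = 0.00583 in edgeR). grk7a, a cone opsin kinase, had 156, 267, 261, 276 and 202 CPM at 10 µg/L and 409.7, 506, 672 and 472 CPM in control (log2 fold change -1.15, SE 0.19, adjusted p = 0.0147 in edgeR). The channel subunit gene cnga3b had 3.41, 5.33, 6.84, 2.96 and 4.40 CPM at 10 µg/L and 9.03, 11.9, 17.5 and 17.2 CPM in control (log2 fold change -1.602, SE 0.29, adjusted p = 0.0229 in edgeR). No exposed library of these 3 genes reached the lowest control. Their paralogs arr3a, grk7b and cnga3a did not pass, and had log2 fold changes of -0.16, 0.19 and -0.73. The alpha transducin of cones, gnat2, averaged 2018 ± 569.9 CPM at 10 µg/L and 1723 ± 399 CPM in control and did not pass (edgeR adjusted p = 0.794). In the fit of all 16 libraries none of the 6 falls kept its call.

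Of 11 photoreceptor transcription factors, beside 0.871% of all genes, neurod1 alone passed. This factor of neurons, photoreceptors and endocrine cells had 718, 994, 1506, 786 and 886 CPM at 10 µg/L and 329, 365, 412 and 455 CPM in control (log2 fold change 1.33, SE 0.22, adjusted p = 0.0118 in edgeR). Library 3 stood out as highest, and the groups did not overlap. crx averaged 280.2 ± 73.7 CPM at 10 µg/L and 219 ± 49.8 CPM in control, and nrl 1.84 ± 0.708 and 1.595 ± 0.381 CPM, with edgeR adjusted p-values of 0.597 and 0.918. None of 16 retinoid cycle genes passed in edgeR (median log2 fold change 0.41). A pair of Ankrd33 paralogs, chosen after their values were seen, split as well. In mouse the family includes a photoreceptor-specific transcriptional regulator. ankrd33ba averaged 16.6 ± 4.05 CPM at 10 µg/L and 7.75 ± 1.08 CPM in control (log2 fold change 1.098, edgeR adjusted p = 0.0371), and ankrd33aa averaged 15.4 ± 2.36 CPM at 10 µg/L and 34.4 ± 2.23 CPM in control (log2 fold change -1.16, edgeR adjusted p = 0.00255). With 1 library left out, the call of ankrd33ba held in 1 of 9 fits and that of ankrd33aa in 9. Neither was called in the fit of all 16 libraries (edgeR adjusted p = 0.688 and 0.386), and ankrd33ba also missed in limma-voom (adjusted p = 0.0555).

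**Figure D3:**
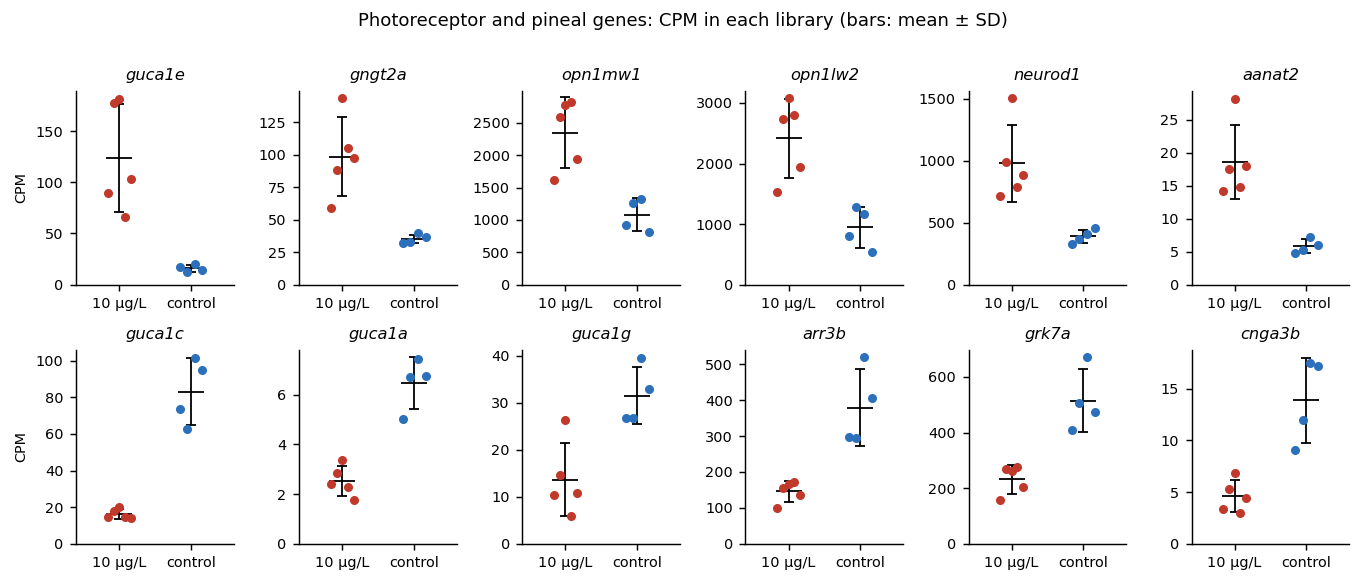
CPM of 12 photoreceptor and pineal genes (y axis, linear from 0, 1 scale per gene) in the 5 libraries at 10 µg/L (red, left) and the 4 control libraries (blue, right), with the mean and SD as bars. The upper row is higher and the lower row lower at 10 µg/L without overlap; guca1g did not pass the test.

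Of 36 tested lens genes cryba1l1 and cryba4, both beta crystallins, rose and 34 did not pass, beside 0.871% called among all genes. DESeq2 called 16 of the 36, all higher, beside 2.44% of all genes. In the list 35 genes had a positive fold change, and the median log2 fold change was 0.87, against -0.01 over all genes. The groups did not overlap in 9 of them, all higher, beside 2.65% of all genes in that direction. The median of the list, as log2 CPM minus the control mean, was 0.34, 1.11, 1.33, 1.23 and 0.32 in 10 µg/L libraries 1 to 5 and -0.24, -0.08, 0.27 and 0.09 in control libraries 1, 3, 4 and 5. Libraries 2, 3 and 4 were high, and libraries 1 and 5 were close to the highest control, the same pair that was lowest for the cone opsins. cryba1l1 had 556, 1019, 1150.3, 1044 and 593 CPM at 10 µg/L and 310.1, 377, 467 and 411 CPM in control (log2 fold change 1.16, SE 0.24, adjusted p = 0.0428 in edgeR). Neither lens call held in the fit of all 16 libraries or without library 3 at 10 µg/L and control library 5, and reads may be shared between crystallin copies.

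Over 3 immediate early lists with 70 distinct tested genes, 18 fell, 0 rose and the others did not pass, beside 0.643% of all genes called lower. A negative fold change was found in 50 of the 70, and the median log2 fold change was -0.56. By list, 4 of 11 AP-1 genes, 13 of 42 EGR, NR4A, KLF and similar genes, and 1 of 17 genes of ERK feedback, spry4, fell. Of the 18, per1a is also a clock gene, and klf9 also belongs to the glucocorticoid and thyroid lists. DESeq2 called 25 of the 70, all lower, beside 1.44% of all genes called lower in that fit. The fit of all 16 libraries called 6, all lower, beside 0.141% of all genes. Whichever library was left out, 8 of the 18 passed, and 49 of the 116 genes called lower over all genes.

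The AP-1 factors form Fos and Jun dimers that drive early responses. fosab had 37.8, 44.6, 46.2, 45.7 and 51.7 CPM at 10 µg/L and 113, 114, 136 and 173 CPM in control (log2 fold change -1.57, SE 0.15, adjusted p = 0.000235 in edgeR). fosaa had 8.22, 7.74, 4.63, 7.25 and 9.79 CPM at 10 µg/L and 30.9, 23.01, 21.97 and 17.3 CPM in control (log2 fold change -1.62, SE 0.23, adjusted p = 0.00501 in edgeR). fosl1a had 1.32, 1.66, 2.42, 0.953 and 1.90 CPM at 10 µg/L and 15.3, 7.99, 8.99 and 7.68 CPM in control, with control library 1 highest (log2 fold change -2.59, SE 0.32, adjusted p = 0.00191 in edgeR). The groups were separate in each. jund averaged 57.1 ± 8.04 CPM at 10 µg/L and 106 ± 17.98 CPM in control and fell (log2 fold change -0.90, edgeR adjusted p = 0.0137). fosl1b was the single AP-1 member with a positive fold change (log2 fold change 0.84, edgeR adjusted p = 0.594).

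The nuclear receptor gene nr4a1 had 9.38, 7.24, 7.996, 8.01 and 10.3 CPM at 10 µg/L and 49.98, 58.1, 58.1 and 50.8 CPM in control (log2 fold change -2.65, SE 0.15, adjusted p = 2.44e-06 in edgeR). Both groups were tight and far apart. nr4a3 had 20.9, 20.6, 18.6, 20.7 and 20.9 CPM at 10 µg/L and 33.98, 30.1, 38.5 and 34.6 CPM in control (log2 fold change -0.75, SE 0.13, adjusted p = 0.0169 in edgeR), whereas nr4a2a and nr4a2b did not pass, at log2 fold changes of 0.22 and 0.06. egr4 had 76.9, 77.2, 84.2, 85.4 and 79.2 CPM at 10 µg/L and 124, 129, 123 and 183 CPM in control (log2 fold change -0.79, SE 0.14, adjusted p = 0.0173 in edgeR), and control library 5 was well above its group. egr1, the best known member of that family, did not pass (log2 fold change -0.33, edgeR adjusted p = 0.482).

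Neuronal and other early genes followed. npas4a, a factor induced by neuronal activity, averaged 186 ± 21.8 CPM at 10 µg/L and 331 ± 82.2 CPM in control (SD, n = 5 and 4; log2 fold change -0.83, edgeR adjusted p = 0.0371), and bdnf, which encodes a neurotrophin and stands outside the lists, averaged 50.3 ± 6.52 and 89.95 ± 19.3 CPM (log2 fold change -0.84, edgeR adjusted p = 0.0287). btg2, an antiproliferative early gene, had 96.99, 121, 128, 138 and 127 CPM at 10 µg/L and 232, 204, 251 and 279 CPM in control (log2 fold change -0.98, edgeR adjusted p = 0.00419). Falls also passed for the MYC-family gene mych (log2 fold change -1.30), the matrix protein gene ccn1 (-1.29), klf2a (-1.33), csrnp1b (-1.14), the pseudokinase gene trib1 (-0.84) and the salt-inducible kinase gene sik1 (-0.97), with edgeR adjusted p-values between 0.00166 and 0.0371. Outside the lists and chosen after their values were seen, the antiproliferative genes tob1a and tob1b fell, with log2 fold changes of -0.96 and -0.71, as did the survival gene mcl1b at -0.90 and the mTOR inhibitor gene ddit4 at -0.74.

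**Figure D4:**
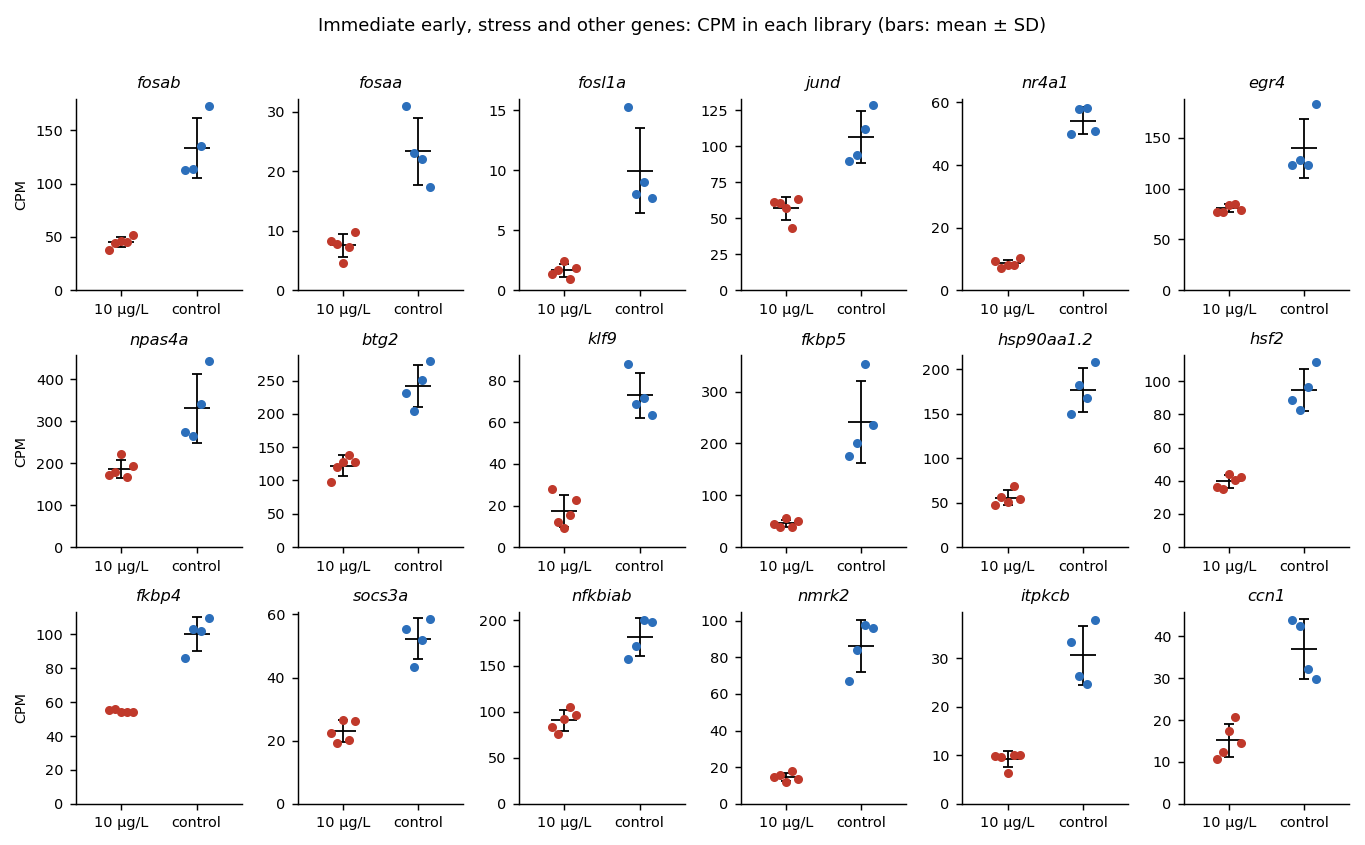
CPM of 18 immediate early, stress and other genes (y axis, linear from 0, 1 scale per gene) in the 5 libraries at 10 µg/L (red, left) and the 4 control libraries (blue, right), with the mean and SD as bars. Every gene shown passed the test, and its exposed libraries all lie below its control libraries.

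Of 27 genes of the glucocorticoid axis and response 4 fell and 0 rose, beside 0.643% of all genes called lower. The median log2 fold change was -0.28, against -0.01 over all genes tested. fkbp5, a co-chaperone of steroid receptors and a standard glucocorticoid target, had 45.2, 39.4, 55.1, 37.8 and 49.8 CPM at 10 µg/L and 175, 201, 354 and 235 CPM in control (log2 fold change -2.41, SE 0.20, adjusted p = 6.99e-05 in edgeR). klf9, another receptor target, had 27.9, 11.98, 9.15, 15.5 and 22.8 CPM at 10 µg/L and 88.4, 68.96, 71.6 and 63.5 CPM in control (log2 fold change -2.06, SE 0.28, adjusted p = 0.00371 in edgeR). Neither gene had an exposed library within the control range. The kinase gene sgk2b averaged 1.73 ± 0.677 CPM at 10 µg/L and 5.73 ± 1.86 CPM in control (log2 fold change -1.71, edgeR adjusted p = 0.0428), and per1a completes the count. The receptor gene nr3c1 averaged 13.97 ± 4.09 CPM at 10 µg/L and 12.5 ± 3.23 CPM in control and did not pass (edgeR adjusted p = 0.899). Values for tsc22d3 and sgk1, both common targets, were log2 fold changes of -0.21 and -0.42 that did not pass. In the fit of all 16 libraries none of the 4 was called, with edgeR adjusted p-values of 0.255 for fkbp5, 0.153 for klf9, 0.0692 for per1a and 0.0629 for sgk2b, and sgk2b was called in 1 of 9 fits with 1 library left out.

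Among 45 heat shock proteins and chaperones 3 fell and 0 rose, beside 0.643% of all genes called lower. A negative fold change was found in 35 of the 45, and in 9183 of all 18027 genes tested. hsp90aa1.2, a cytosolic Hsp90, had 47.1, 56.7, 50.6, 69.03 and 53.7 CPM at 10 µg/L and 149.5, 182, 168 and 207 CPM in control (log2 fold change -1.67, SE 0.14, adjusted p = 6.99e-05 in edgeR). hsf2, a heat shock transcription factor, had 36.3, 34.8, 43.8, 40.7 and 42.2 CPM at 10 µg/L and 88.9, 82.4, 96.8 and 112 CPM in control (log2 fold change -1.26, SE 0.13, adjusted p = 0.000329 in edgeR). fkbp4, an Hsp90 co-chaperone, had 55.3, 55.9, 54.3, 54.2 and 54.5 CPM at 10 µg/L and 86.1, 103, 102 and 109.8 CPM in control (log2 fold change -0.87, SE 0.11, adjusted p = 0.00193 in edgeR). The exposed libraries of fkbp4 were nearly level. The muscle-expressed copy hsp90aa1.1 averaged 7.19 ± 4.75 CPM at 10 µg/L and 22.003 ± 8.36 CPM in control and did not pass (log2 fold change -1.605, edgeR adjusted p = 0.253).

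Cytokine and NF-kappa-B feedback genes also included falls without rises, 3 of 30, beside 0.643% of all genes called lower. socs3a, a feedback inhibitor of cytokine receptors, had 22.4, 19.1, 26.6, 20.2 and 26.3 CPM at 10 µg/L and 55.2, 43.4, 51.7 and 58.6 CPM in control (log2 fold change -1.19, SE 0.15, adjusted p = 0.00199 in edgeR), while socs3b had a log2 fold change of 0.12 and did not pass. nfkbiab, the gene of an NF-kappa-B inhibitor, had 83.6, 75.7, 91.7, 106 and 96.6 CPM at 10 µg/L and 158, 172, 200.1 and 198 CPM in control (log2 fold change -1.003, SE 0.13, adjusted p = 0.00255 in edgeR). Exposed libraries lay wholly below controls in both socs3a and nfkbiab. ptgs2b, a cyclooxygenase 2 gene, averaged 2.28 ± 0.684 CPM at 10 µg/L and 6.37 ± 0.592 CPM in control (log2 fold change -1.49, edgeR adjusted p = 0.0284).

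Of 58 genes of PPAR signalling and fatty acid oxidation only ucp3 passed, lower, beside 0.643% of all genes called lower. The median log2 fold change of the list was 0.01. ucp3, a mitochondrial carrier of muscle, had 24.96, 16.7, 16.1, 35.1 and 38.1 CPM at 10 µg/L and 64.8, 54.8, 55.5 and 67.2 CPM in control (log2 fold change -1.21, SE 0.25, adjusted p = 0.0428 in edgeR). Its neighbour ucp2, 5947 bases away, had 96.3, 86.8, 71.4, 125 and 92.1 CPM at 10 µg/L and 157, 150.4, 170.2 and 182 CPM in control (log2 fold change -0.81, SE 0.15, adjusted p = 0.0292 in edgeR). It was the single call among 37 genes of the Nrf2 and oxidative stress list, beside 0.871% of all genes. Libraries 4 and 5 at 10 µg/L were highest for ucp3 and library 4 for ucp2, yet all stayed below the controls. The receptor genes pparaa and pparab and the carnitine palmitoyltransferase gene cpt1aa did not pass, with log2 fold changes of -0.14 (SE 0.18), -0.43 (SE 0.36) and 0.06 (SE 0.16).

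Of 55 xenobiotic genes 1 passed, beside 0.871% of all genes. This was abcc1, an efflux transporter, with 50.1, 49.8, 63.97, 44.2 and 54.9 CPM at 10 µg/L and 25.4, 31.2, 28.5 and 30.4 CPM in control (log2 fold change 0.86, SE 0.14, adjusted p = 0.0118 in edgeR). It was higher in each exposed library, and its call held in 7 of 9 fits with 1 library left out. In the fit of all 16 libraries abcc1 was not called (edgeR adjusted p = 0.0985). cyp1a, the sentinel of the aryl hydrocarbon receptor, averaged 4.95 ± 1.53 CPM at 10 µg/L and 9.14 ± 3.31 CPM in control and did not pass (log2 fold change -0.88, edgeR adjusted p = 0.327). The antioxidant genes cat, sod1 and hmox1a had log2 fold changes of 0.42, 0.32 and 0.65 and did not pass, with edgeR adjusted p-values of 0.235, 0.55 and 0.52.

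nmrk2, a kinase of nicotinamide riboside used in muscle NAD synthesis, had 14.4, 15.7, 11.99, 17.8 and 13.4 CPM at 10 µg/L and 67.1, 83.8, 97.6 and 96.1 CPM in control (log2 fold change -2.55, SE 0.16, adjusted p = 5.41e-06 in edgeR). The groups were several-fold apart with no overlap. It was the single call among 21 genes of NAD metabolism and among 82 skeletal muscle genes, beside 0.871% of all genes. Other single calls came in lists of 19 to 48 tested genes, beside 0.871% of all genes. Of these psme4a, a proteasome activator, rose (log2 fold change 1.15, edgeR adjusted p = 0.000935). The coagulation factor gene f5 (log2 fold change -1.59, edgeR adjusted p = 0.0316), the sarcomere gene tcap (log2 fold change -1.36, edgeR adjusted p = 0.0428), the coat protein gene sec23b (log2 fold change -0.76, edgeR adjusted p = 0.0268) and gadd45bb (log2 fold change -0.96, edgeR adjusted p = 0.0177) fell. Described above, neurod1 was also the single call among 16 endocrine pancreas and gut hormone genes, and klf9 among 15 thyroid axis genes. In the epidermal list the desmosome-associated plakins evplb and ppl fell, with log2 fold changes of -0.84 and -0.85. These were 2 of 43 genes, beside 0.643% of all genes called lower.

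Skeletal muscle and liver markers varied widely between libraries of the same group. For skeletal muscle the median of 82 genes, as log2 CPM minus the control mean, was 0.16, -1.01, -1.596, 0.15 and -0.04 in 10 µg/L libraries 1 to 5 and 0.52, 0.85, -0.11 and -1.18 in control libraries 1, 3, 4 and 5. Libraries 2 and 3 at 10 µg/L and control library 5 were low, and the groups overlapped. A negative fold change was found in 80 of the 82 genes, beside 9183 of all 18027 genes tested. The median log2 fold change was -0.49. It was -0.29 without library 3 at 10 µg/L, and -0.57 without that library and control library 5. For the liver list the library medians were 0.11, -0.76, -1.59, 0.38 and -0.07 at 10 µg/L and 0.66, 0.55, -0.39 and -0.84 in control, again lowest in library 3 at 10 µg/L and in control library 5. In that list 41 of 48 genes had a negative fold change, with a median log2 fold change of -0.37. The summed muscle level was 16865 to 68663 CPM at 10 µg/L and 22664 to 90883 CPM in control. What part this played in the called genes was not tested, and 150 genes were called without library 3 at 10 µg/L and control library 5, 29 higher and 121 lower.

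The intestine list had a median log2 fold change of -0.62 over 42 genes, 34 of them negative, and none passed in edgeR. The groups did not overlap in 10 of its genes, all lower, beside 2.78% of all genes in that direction. Library medians were -0.28, -1.08, -1.32, -0.04 and -0.42 at 10 µg/L and 0.21, 0.41, -0.11 and -0.38 in control, which overlapped. anpepb, a brush border peptidase, had 23.1, 8.07, 7.36, 23.2 and 17.5 CPM at 10 µg/L and 48.1, 50.7, 37.6 and 29.7 CPM in control (log2 fold change -1.39, SE 0.34, adjusted p = 0.11 in edgeR). mep1a.1, a meprin protease gene, averaged 3.29 ± 1.43 CPM at 10 µg/L and 9.89 ± 4.63 CPM in control (SD, n = 5 and 4; log2 fold change -1.59, edgeR adjusted p = 0.105). Both were lower in every exposed library without passing. In all, 26 of 49 lists had a called member, and the medians of the 23 lists without a call ran from -0.64 to 0.41. Of the 157 genes 70 stood in a list. The lists matched 1709 symbols, tested or not, beside 18027 genes tested in all. They were written with earlier results known, so these counts only describe the lists.

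**Figure D5:**
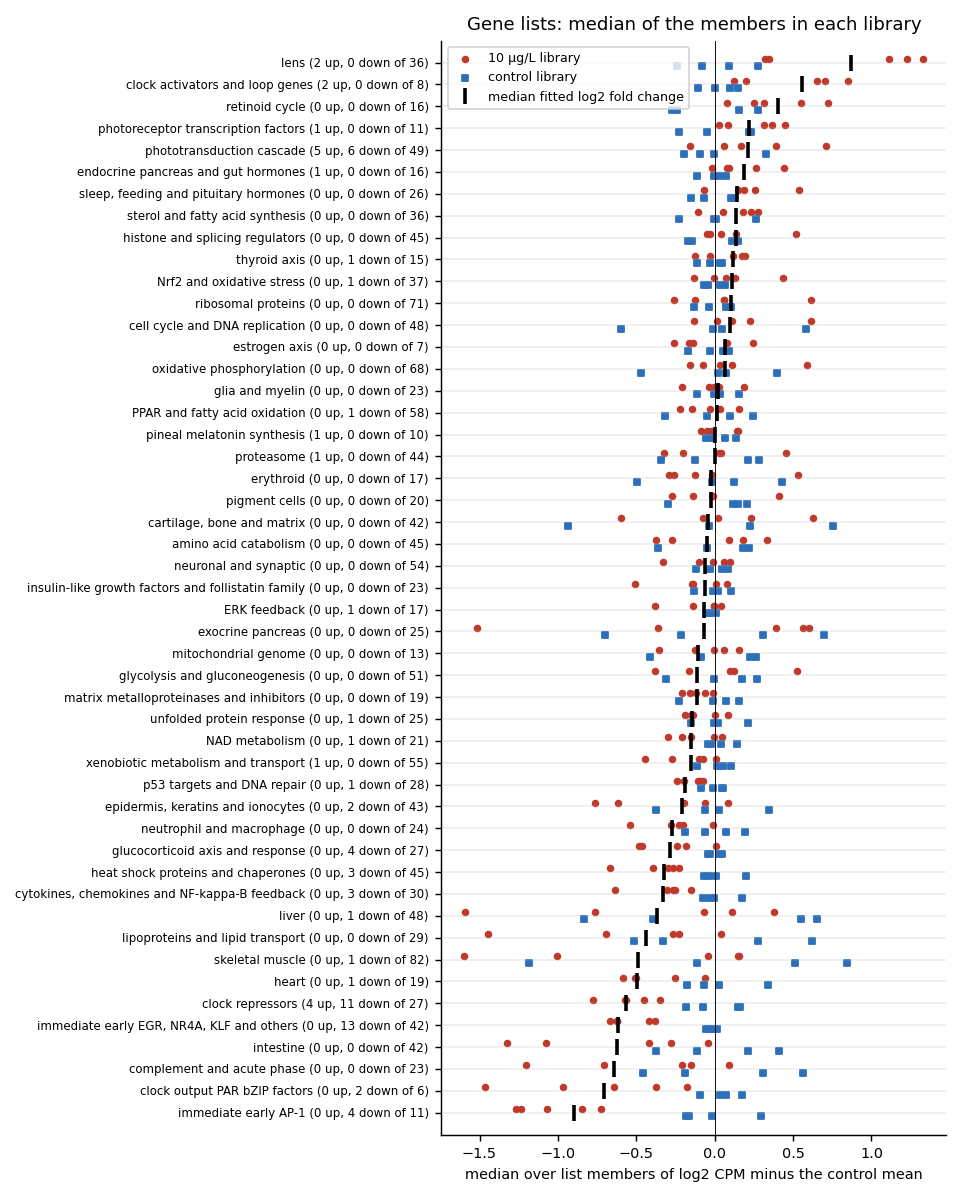
Median over the tested members of each of 49 gene lists (rows, with members called higher and lower) of log2 CPM minus the control mean (x axis), 1 red point per 10 µg/L library and 1 blue square per control library, with the median fitted log2 fold change as a black bar. The AP-1 list, the EGR, NR4A and KLF list and the clock repressors are lower in each exposed library than in any control library. The same holds for the PAR bZIP, heat shock and cytokine lists. The lens list is higher in each exposed library, and liver and muscle spread widely within both groups.

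Genes outside the lists included some of the largest differences, and these were chosen after their values were seen unless the rule took them. gpr186, a G protein-coupled receptor gene, had 28.8, 25.1, 24.3, 25.9 and 31.05 CPM at 10 µg/L and 92.99, 90.9, 91.5 and 99.95 CPM in control (log2 fold change -1.79, SE 0.12, adjusted p = 7.96e-06 in edgeR). itpkcb, an inositol trisphosphate kinase gene, had 9.92, 9.57, 6.42, 10.1 and 10.1 CPM at 10 µg/L and 33.3, 26.3, 24.8 and 37.9 CPM in control (log2 fold change -1.73, SE 0.19, adjusted p = 0.000726 in edgeR). Both fell in all exposed libraries, and library 3 was lowest for itpkcb. CABZ01117503.1, a gene with a clone name, had 3.72, 4.24, 9.57, 3.81 and 6.83 CPM at 10 µg/L and 0.0821, 0, 0.147 and 0 CPM in control (edgeR adjusted p = 0.000381). si:dkey-202l22.6 had 0.465, 0, 1.05, 0.0953 and 0.228 CPM at 10 µg/L and 19.5, 20.1, 15.4 and 6.12 CPM in control (edgeR adjusted p = 0.00127). One group of each is at or near 0, so no fold is given.

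Of 3 further genes that rose, agpat3 was taken by the rule for named genes, and pisd and ddhd1a were chosen after their values were seen. agpat3, a lysophospholipid acyltransferase gene, had 228, 274, 245, 224 and 236 CPM at 10 µg/L and 139, 145, 154 and 135 CPM in control (log2 fold change 0.75, SE 0.11, adjusted p = 0.00713 in edgeR). pisd, which makes phosphatidylethanolamine in mitochondria, averaged 32.5 ± 3.38 CPM at 10 µg/L and 20.1 ± 1.61 CPM in control (log2 fold change 0.69, edgeR adjusted p = 0.0381). ddhd1a, a phospholipase gene, averaged 24.4 ± 3.24 CPM at 10 µg/L and 12.9 ± 0.276 CPM in control (log2 fold change 0.91, edgeR adjusted p = 0.0139). All were modest rises with no overlap, and the call held in 9, 1 and 5 of 9 fits with 1 library left out for agpat3, pisd and ddhd1a in that order. Among solute carriers, slc3a2b, the heavy chain of amino acid transporters, had the smallest called differences together with si:dkey-175g6.2, at log2 fold changes of -0.54 and -0.54.

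In GRCz11 coordinates, as the deposited table gives them, the listed positions are per1a (ENSDARG00000056885) on chromosome 10 from 22809715 to 22831611, per1b (ENSDARG00000012499) on chromosome 7 from 50822465 to 50847296, nr1d2a (ENSDARG00000003820) on chromosome 16 from 50089417 to 50111057, cry4 (ENSDARG00000011890) on chromosome 22 from 819656 to 834106, guca1c (ENSDARG00000030758) on chromosome 15 from 2884711 to 2903475, opn1mw1 (ENSDARG00000097008) on chromosome 6 from 41181869 to 41183823, opn1lw2 (ENSDARG00000044861) on chromosome 11 from 25481046 to 25483206, fkbp5 (ENSDARG00000028396) on chromosome 6 from 41096058 to 41117242, klf9 (ENSDARG00000068194) on chromosome 5 from 26075230 to 26078165 and nmrk2 (ENSDARG00000067848) on chromosome 2 from 55982300 to 55990329. Each count is of a whole gene, with its exons and untranslated regions together. In 7 places a pair of called genes lay within 100000 bases of each other, among them klf9 and si:dkey-201c13.2 (1013 bases apart, both lower), and fkbp5 and opn1mw1 (64627 bases apart, in opposite directions). No matching count over all tested genes is given, so the number of pairs is only a description. Of the 157 genes 23 (14.6%) overlap another listed gene, against 21.1% of the genes tested. guca1c, nmrk2, fosab, egr4, nr4a3, ucp2, ucp3 and fbxl3l are among them, all overlapped on the other strand, and their counts are less certain because the sources used here give no strand setting for the counting.

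Whether the response at 10 µg/L differs from that at 1 µg/L was tested between these 2 doses directly, with 5 and 4 libraries and no control library in the fit. Of 17828 genes tested 0 passed in edgeR (0.0%), where 668 had an unadjusted p below 0.05, and limma-voom also called 0. DESeq2 called 6 genes (0.0337%), 4 higher (0.0224%) and 2 lower (0.0112%) at 10 µg/L. A p above the threshold does not show that the doses act alike. Library 5 at 1 µg/L lay near the control level in many clock genes and in called genes of other lists, though not in all. The count without it is given below. On the scale of all 16 libraries, nr1d1 had 30.5, 43.8, 52.3, 43.01 and 29.9 CPM at 10 µg/L and 24.3, 26.5, 19.004 and 617 CPM in 1 µg/L libraries 1, 2, 4 and 5 (log2 fold change -2.10, SE 0.94, 10 over 1 µg/L). fkbp5 had 41.5, 36.7, 51.5, 35.6 and 46.4 CPM at 10 µg/L and 20.2, 16.6, 23.6 and 438 CPM at 1 µg/L (log2 fold change -1.55, SE 0.88). In both genes library 5 was the one high library at 1 µg/L, and the others lay below the 10 µg/L libraries. Among photoreceptor genes on that scale, guca1c had 15.6, 16.5, 10.3 and 110 CPM in 1 µg/L libraries 1, 2, 4 and 5. For grk7a these were 163, 200, 139 and 659 CPM, and the control means of guca1c and grk7a were 77.9 and 483 CPM.

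The genes that DESeq2 called between the doses included the cone opsin genes opn1mw1 and opn1lw2. opn1mw1 had 1478, 2414, 2601, 2657 and 1815 CPM at 10 µg/L and 1032, 1135, 851 and 1029 CPM at 1 µg/L (log2 fold change 1.12, SE 0.19; DESeq2 adjusted p = 0.000297). opn1lw2 had 1409, 2544, 2875, 2643 and 1804 CPM at 10 µg/L and 1004, 1011, 943 and 554 CPM at 1 µg/L (log2 fold change 1.37, SE 0.24; DESeq2 adjusted p = 0.000667). Both were higher in all 10 µg/L libraries, and their edgeR adjusted p was 0.653. egr4 had 70.6, 71.8, 78.7, 80.6 and 73.8 CPM at 10 µg/L and 48.5, 38.9, 45.1 and 54.3 CPM at 1 µg/L (log2 fold change 0.69, SE 0.12; DESeq2 adjusted p = 0.00205), so the 1 µg/L level was the lower one. per2 had 152, 159, 181, 171 and 184 CPM at 10 µg/L and 279, 223, 232 and 251 CPM at 1 µg/L and was lower at 10 µg/L (log2 fold change -0.53, SE 0.12; DESeq2 adjusted p = 0.0494). The other calls were CABZ01117503.1, higher at 10 µg/L, and BX511310.2, lower. Without library 5 at 1 µg/L edgeR called 1 gene, npas4a, which had 157, 167, 206, 157 and 179.96 CPM at 10 µg/L and 45.5, 50.6, 43.9 and 155 CPM at 1 µg/L (adjusted p = 0.000621 without that library).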

How the data were processed

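RNA sequencing counts of whole larvae were analysed for 5 libraries at 10 µg/L and 4 control libraries, with 4 libraries at 1 µg/L for the dose comparison. The authors deposited raw read counts per gene, with no normalization. Tools named in the submitters' processing notes are fastp, HISAT2, featureCounts and DESeq2, with the build GRCz11. The sources used here give no versions, annotation release or strand setting. The authors' log2 fold changes, p-values and adjusted p-values, as deposited, were used only where the authors' deposited table is named. Control and 1 µg/L columns carry numbers that differ from the sample titles, so they were assigned to their group and not to a titled sample.

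Genes were filtered with filterByExpr, scaled by TMM (trimmed mean of M values) and tested with edgeR 4.0.16 (R 4.3.3, robust quasi-likelihood F test, Benjamini-Hochberg over all genes tested, called below 0.05) in a fit of the groups compared. Levels are CPM on TMM-scaled library sizes, the SE was derived from the F statistic, and principal components used log2 CPM with a prior count of 2. For the dose comparison the tables were joined by gene identifier, a gene missing from a table got a count of 0 there (10528 cells in the whole join), and 0 sample columns were left unmatched. No 2 of the 9 libraries were duplicates, with a chi-square per degree of freedom of 9.18 to 98.3 over 36 pairs. Intervals from counting were not used, and the read totals above set the depth.

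The groups, the fit, the 49 gene lists and the rule for named genes were chosen with earlier results of these data known. Of 1842 list symbols 1709 were matched, 1697 by the table's gene name and 12 by a reference symbol. Named were called genes with a mean of at least 2 CPM and a full symbol, up to 15 with the largest rise and 15 with the largest fall, up to 8 called members of each list (or 3 by lowest p where none was called), genes called in every leave-one-out fit, DESeq2 and the fit of all 16 libraries, paralogs in the same list, and 8 genes set by name, of which pparg did not pass the filter. Not every gene the rule takes is printed. Other list members, and genes in no list, were named after their values were seen. Lists are described by counts and medians without a set test. Alternatives were DESeq2 1.42.0, limma-voom (limma 3.58.1), other scalings and filters, fits of 16 or 14 libraries and leaving out libraries. The fits were tested on simulated counts.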

Additional observations from a re-analysis of the deposited data

Results flagged for a closer look

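Over 71 of the named called genes and 5 library measures, 10 of 152 groups (6.58%) held a library far from the rest of its group by Dixon's criterion, and chance flags about 1 in 20 groups. In 6 of the 10 the library was library 3 at 10 µg/L. It was highest there for aanat2 at 28.2 CPM (others 14.3 to 17.9), cry3b at 544 CPM (254 to 321), spsb3b at 5.79 CPM (2.29 to 3.18) and tcap at 8.94 CPM (3.66 to 4.57). It was lowest for itpkcb at 6.42 CPM (9.57 to 10.1) and nr4a3 at 18.6 CPM (20.6 to 20.9). In the control group, library 5 was highest for egr4 at 183 CPM (123 to 129), library 1 for ppl at 37.8 CPM (28.8 to 30.2) and for stard14 at 13.9 CPM (7.76 to 8.62), and library 3 was lowest for evplb at 28.7 CPM (36.4 to 37.9).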

How the results depend on the processing

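Against control, the 157 genes called (41 higher, 116 lower) became 439 with DESeq2 (180 and 259), 43 in the fit of all 16 libraries (16 and 27) and 80 in a fit of 14 libraries without libraries 1 and 2 at 0.1 µg/L (39 and 41). Genes called in both numbered 157, 43 and 67, and the cause of these differences was not tested. Other scalings, filters and limma-voom called 149 to 173. Leaving out 1 library gave 67 to 181 genes, 14 to 50 higher and 52 to 135 lower. At 10 µg/L the count was 88 without library 2 and 97 without library 5. It was 83, 67 and 100 without control library 1, 4 or 5. In all, 63 of the 157 passed in each of these 9 fits (14 higher, 49 lower), and guca1d and ppm1h passed in none. Other genes named above passed in few of the 9. Among these were ddit4 in 1, nr1d2b, npas4a, bdnf and f5 in 2, nfil3-6 and cnga3b in 3 and fbxl3l in 4.

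Of 74 named called genes all kept their call in DESeq2, 43 lost it in the fit of all 16 libraries, 37 in that of 14, 6 in limma-voom and 3 with library size only, and none changed sign. Changes of sign occurred in uncalled genes only. With 1 library left out, the log2 fold change of arr3a ran from -0.496 to 0.0275, the high value without library 5 at 10 µg/L. That of cpt1aa ran from -0.0716 without library 3 at 10 µg/L, and -0.000774 without control library 1, to 0.157. For esr1 the range was -0.927 to 0.00314, the high value without control library 5. For grk7b it was -0.0982, without library 3 at 10 µg/L, to 0.341. Leaving out library 3 at 10 µg/L together with control library 5 gave 0.16 for esr1 and -0.0482 for grk7b.

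Between 10 and 1 µg/L DESeq2 called 6 genes (4 higher, 2 lower), and leaving out 1 library gave 0 to 1 genes, 0 to 1 of them higher. No paired analysis was possible because the control and 1 µg/L columns carry no replicate number that the labels give. Genes near 1 CPM, such as guca1d, rest on few reads.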
